A study of Homo sapiens with 36 samples.

Results

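Binding sites of the hypoxia-inducible factors HIF-1α and HIF-2α at the start sites of long noncoding RNA (lncRNA) genes were taken from Cut&Run peak lists of 786-O cells. Peaks of the 15 anti-V5 lists of tagged lines that overlapped were merged, and regions with peaks from at least 2 lists were kept. The centre of a region was the median of its peak summits. A region was counted as an lncRNA promoter region when its centre lay within 1 kb of a transcription start site (TSS) of an lncRNA gene and more than 1 kb from every protein-coding TSS in GENCODE release 44. This rule found 1068 lncRNA promoter regions among 25350 regions, or 4.21%, and their nearest start sites belonged to 977 of the 18866 annotated lncRNA genes. A further 8008 regions had a protein-coding TSS within 1 kb, of which 1641 also had an lncRNA TSS that close and were counted as protein-coding, and 16274 regions were over 1 kb from both kinds of start site.

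All libraries came from 786-O, a clear cell renal carcinoma line that lacks functional VHL and HIF-1α and keeps HIF-2α stable in normal oxygen. The series held 36 samples of 6 lines, with 3 anti-V5 and 3 control IgG libraries per line, and nothing in the labels says that replicates were separate cultures, so p-values measure the spread between these libraries, which may be technical. Wild-type (WT) cells carried no tag and give the background of the antibody. The HIF-2α KIN line, the homozygous clone A31, carried V5 and Halo tags on the N terminus of endogenous HIF-2α, so its values describe 1 clone. The other 4 lines stably expressed a tagged transgene from the L30 promoter in cells that still made untagged endogenous HIF-2α. They carried HIF-2α, HIF-1α, HIF-2α/1α (residues up to 365 of HIF-2α joined to residues 364 to 826 of HIF-1α) and HIF-1α/2α (residues up to 363 of HIF-1α joined to residues 366 to 870 of HIF-2α). The N-terminal part holds the DNA-binding and dimerization domains (DBD below) and the C-terminal part the intrinsically disordered region (IDR). Each construct came in 1 line, and the 6 libraries of an IDR or DBD pool a full-length line and a chimera line. The paper reports that expression from the L30 promoter varied between cells, and the labels give no transgene level. Protein, line and transgene level therefore cannot be told apart in the IDR and DBD comparisons.

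HIF-1α and HIF-2α pair with HIF-1β (ARNT) and read the same short core, the hypoxia response element (HRE), RCGTG. Their targets include noncoding as well as coding genes. lncRNAs are transcribed by RNA polymerase II like mRNAs but are not translated. Many start inside or opposite a protein-coding gene (antisense), share a promoter with one in divergent orientation, lie between genes, or serve as precursors from which microRNAs or small nucleolar RNAs are cut (host genes).

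The HRE copies below are shown because the results turn on these regions. They were read from hg38 with 10 bases to each side, 5′ to 3′ on the strand given, and the capitals mark 1 copy of ACGTG or GCGTG per region, searched on both strands. Any other copy in the bases shown, such as the ACGTG near the 5′ end of the ENSG00000213994 sequence, is in lower case. The first set belongs to regions called in all 15 tagged libraries. LINC01714, LINC02985, LINC03057 and ENSG00000287560 lie between protein-coding genes, ENSG00000288929 lies in an intron of KDM6B, and MIR210HG and MIR29B2CHG host microRNAs.
LINC01714, chr1:8202359-8202383, minus strand: ctggctcactACGTGccatccagcc
LINC02985, chr12:122065075-122065099, plus strand: ggaaggagagACGTGcctgactgag
LINC03057, chr17:48638076-48638100, minus strand: gtcaccccagACGTGcacatattca
ENSG00000287560, chr10:3047217-3047241, minus strand: gagtgtgtgcACGTGcatacattca
ENSG00000288929, chr17:7835710-7835734, minus strand: gtgggagtgcACGTGcgggtcccag
MIR210HG, chr11:568613-568637, minus strand: ccccgggcagACGTGcagaaaagaa
MIR29B2CHG, chr1:207805993-207806017, plus strand: acagctacttACGTGactgatgtgt

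The second set belongs to regions whose signal or calls differed between tagged lines in a comparison described further on. For ENSG00000213994 this was exogenous against endogenous HIF-2α. For LINC00971 it was calls by IDR, at an unadjusted Fisher's exact p alone.
LINC00702, chr10:4242635-4242659, plus strand: acatcagcatACGTGcaagatgaca
LINC02188, chr16:86735059-86735083, minus strand: gccgtgtgctACGTGcctgtgcccg
LINC02777 region 2, chr1:58929768-58929792, plus strand: cagttgacgtACGTGcaaaggaagg
LNCTSI, chr21:36430225-36430249, plus strand: cctagaggctGCGTGaagctcgtga
LINC00887 region 1, chr3:194312933-194312957, minus strand: agggaggtgaACGTGtgtcctgtga
ENSG00000213994, chr10:6201642-6201666, plus strand: gacgtgagcgACGTGtggcagcctc
LINC00971, chr3:84881465-84881489, plus strand: tggagtgtctACGTGtatactcacc

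The tagged lists held 3984 to 20808 peaks and the WT lists 392, 9508 and 743. Tagged libraries had a mean coverage, recovered from their peaks, of 0.253 to 0.625 fragments per base, and the median peak summit held 14 to 41 fragments. Absence from a list means no call, which does not show that the site was empty. Both scales below come from the peak lists. The deposited fold is the fragment pileup at a summit over the local background, which the control library helps to set. The summit height is the number of fragments at the summit divided by the genome-wide mean of the library, and does not use the local background.

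The lncRNA promoter regions were mostly intergenic. 800 of 1068 lay outside every protein-coding gene, 223 in a protein-coding intron and 45 in a protein-coding exon. Of the 268 inside a protein-coding gene, 207 had their lncRNA on the opposite strand. The median distance to the nearest protein-coding TSS was 24.9 kb, with 325 regions within 10 kb and 196 over 100 kb away. Taking all lncRNA genes, 375 centres lay in an exon, 323 in an intron and 370 outside every lncRNA gene. The median distance to the lncRNA TSS was 189 bp, and 343 centres (32.1%) lay within 100 bp of it. By symbol, 232 regions belonged to LINC genes, 117 to antisense genes, 36 to hosts of small RNAs and 12 to divergent transcripts, 108 had another symbol and 563 had an Ensembl ID only. At the 1 kb limit, DLEU1 region 3 (997 bp from its TSS, called in 4 of 15 tagged libraries) and MIR130AHG (995 bp, 6 of 15) were just inside, and regions 1002 bp from LINC02346 (7 of 15) and ENSG00000287510 (3 of 15) were just outside.

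In base composition they stood between the other classes. The median GC content of 201 bp around the centre was 54.7% in lncRNA promoter regions, 65.2% in protein-coding promoter regions and 48.8% in regions far from both. The observed over expected CpG ratio was 0.384, 0.788 and 0.238 in the same order. GGGCGG, the GC box bound by SP1-like factors, was found within 100 bp of the centre in 23.8% of lncRNA promoter regions, 52.2% of protein-coding promoter regions and 22.2% of all regions. TGACTCA or TGAGTCA, the motif of the AP-1 factors, was found in 17.5%, 6.01% and 17.2%. Both motifs were searched on both strands. With windows moved by 100 bp to the lower-coordinate side, for the reason given next, the AP-1 shares were 23.9%, 8.08% and 24.4%.

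An HRE lay within 50 bp of the centre in 326 lncRNA promoter regions (30.5%), against 35.6% of protein-coding promoter regions, 19.1% of regions far from both and 24.8% of all regions. Windows 1 kb to each side of lncRNA promoter regions held one in 14.5%, and windows of the same length at all annotated lncRNA gene starts in 17.7%. The centre was not where the motif was densest. In 20 bp steps the HRE was most frequent 80 bp to the lower-coordinate side of lncRNA promoter centres and 100 bp to that side in the 24282 other regions, on either strand of the lncRNA gene alike, and AP-1 was most frequent 100 to 120 bp to the same side. Single summits showed it in 15 of 15 tagged libraries, with maxima 60 to 100 bp to that side. Peak summits in the deposited lists are thus displaced from the motif to higher coordinates, for a reason that was not tested, and for the HRE and AP-1 windows moved by 100 bp to the lower side are given beside those at the centre (chosen after seeing the data). Distances to start sites are from the unmoved centres. With centres so moved, 1070 regions met the rule for lncRNA promoter regions, and 1035 met it with both centres.

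**Figure D1:**
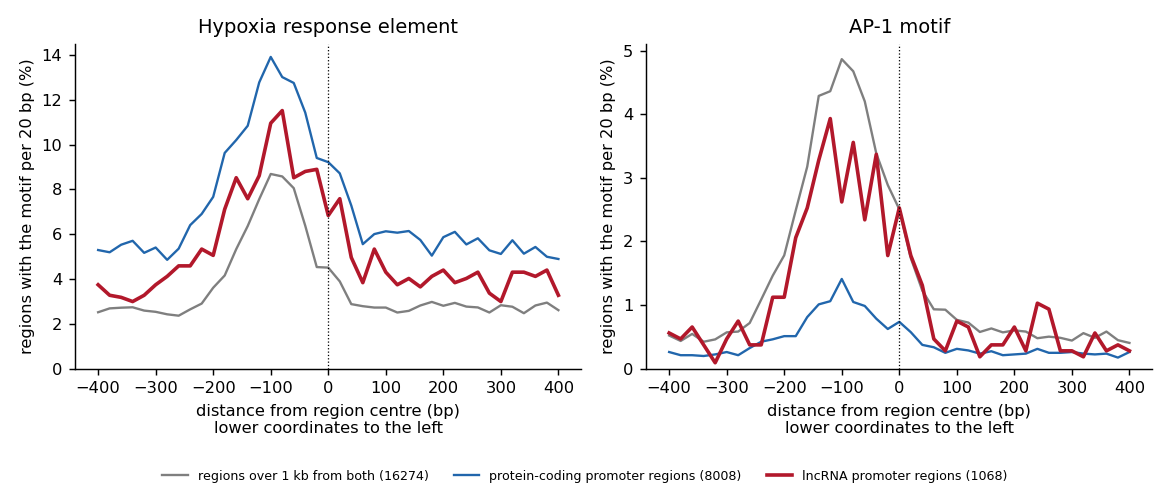
Percent of regions with a hypoxia response element (left) or an AP-1 motif (right) per 20 bp, against the distance from the region centre in bp, for 1068 lncRNA promoter regions, 8008 protein-coding promoter regions and 16274 regions over 1 kb from both. The HRE maximum of lncRNA promoter regions lies 80 bp to the lower-coordinate side of the centre, at 11.5% against 6.84% at the centre.

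At the moved centre, 394 lncRNA promoter regions (36.9%) held an HRE, against 47.3% of protein-coding promoter regions and 37.6% of all regions, while windows moved by 100 bp the other way held one in 18.4% of lncRNA promoter regions. The share was higher in regions called in more libraries. It was 27.1% in regions called in 2 to 5 tagged libraries, 38.9% in 6 to 10, 47.4% in 11 to 14 and 63.2% (60 of 95) in regions called in all 15. Regions with an HRE there were called more often than regions without in 15 of 15 tagged libraries, by 14.2 ± 2.70 percentage points (SD, n = 15, range 8.85 to 17.6). Within each list their peaks also ranked higher. The median rank percentile (100 for the strongest peak of a list) was 68.7 ± 4.05 with and 51.4 ± 4.22 without an HRE, and the difference was above 0 in 15 of 15 libraries (9.94 to 23.9). At the unmoved centre the same differences were 6.98 points in calls (15 of 15 libraries) and 4.71 in rank (13 of 15). There they were 7.45 and 6.76 in protein-coding promoter regions and 6.54 and 6.88 in regions far from both, above 0 in 15 of 15 libraries each. The higher calls and ranks with an HRE were thus not particular to lncRNA promoter regions. At the moved centre these differences were taken for lncRNA promoter regions alone.

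Calls varied widely between libraries. Of the 1068 lncRNA promoter regions, the KIN libraries called 16.3%, 38.6% and 27.2%, the HIF-2α libraries 23.8%, 68.3% and 23.1%, and the HIF-2α/1α libraries 58.5%, 73.3% and 43.9%. The HIF-1α libraries called 54.1%, 69.3% and 57.6% and the HIF-1α/2α libraries 44.2%, 58.0% and 42.5%. Replicate 2 was the highest in every tagged line and also in WT, where the libraries called 0.0936%, 14.7% and 2.81%. The regions were called in a median of 6 tagged libraries, 198 (18.5%) in 2 and 95 (8.90%) in all 15, against 6.79% of all regions and 6.59% of protein-coding promoter regions called in all 15. LINC genes made up 34 of the 95 (14.7% of the LINC regions), whereas 4 antisense regions (3.42%) were called in all 15.

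Most lncRNA promoter regions had no call in untagged cells. 903 were called in no WT library, 143 in 1 and 22 in 2 or 3. These 22 were 2.06%, against 1.87% of all regions and 0.874% of protein-coding promoter regions. WT replicate 2 called 14.7% of lncRNA promoter regions, against 9.25% of protein-coding promoter regions and 12.3% of all regions. Of the 95 called in all 15 tagged libraries, 60 were called in no WT library. LINC00511 region 1 was the exception called in all 3 WT libraries, with WT summit heights of 109, 299.9 and 154, against 166 to 1469 in tagged libraries. LINC01843 and ENSG00000288777 were called in 2 WT libraries each.

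**Figure D2:**
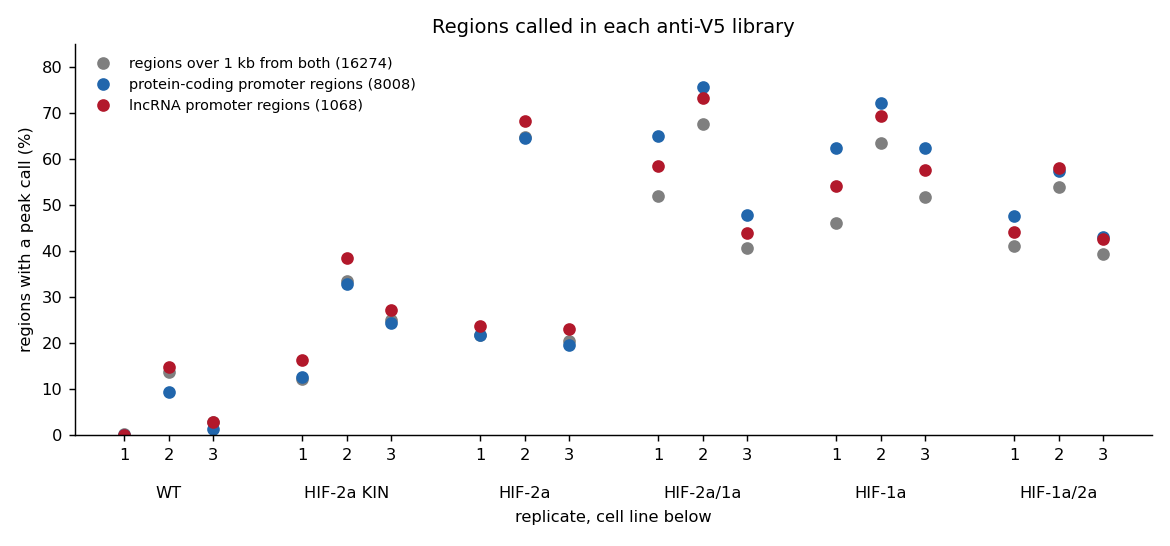
Percent of regions with a peak call in each of the 18 anti-V5 libraries (replicates 1 to 3 of each line), for lncRNA promoter regions, protein-coding promoter regions and regions over 1 kb from both. Replicate 2 is the highest in each line, and WT calls 0.0936% to 14.7% of lncRNA promoter regions.

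Endogenous HIF-2α was called at 248 lncRNA promoter regions (23.2%, against 19.9% of all regions) in at least 2 of 3 KIN libraries. Of these, 190 were also called in at least 2 of 3 libraries with exogenous HIF-2α, 232 with HIF-2α/1α, 235 with HIF-1α and 215 with HIF-1α/2α, and 183 with all of these proteins. In the same order the shares were 76.6%, 93.5%, 94.8%, 86.7% and 73.8%, against 74.3%, 93.5%, 91.2%, 85.7% and 69.4% of all 5048 regions so called in KIN. The HIF-2α lists of replicates 1 and 3 were the shortest of the exogenous lines, and whether the shares follow list length was not tested. 1 of the 248 (0.403%, against 0.614%) was called in no exogenous library. In the other direction 565 lncRNA promoter regions (52.9%) were called in no KIN library, against 58.3% of all regions, and 22 of these (3.89%, against 4.48%) had calls in 2 or 3 libraries of every exogenous line.

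Of the 10 lncRNA promoter regions with the highest median rank among those called in all 15 tagged libraries, all but ENSG00000286505 and ENSG00000288929 lay outside protein-coding genes, and 9 held an HRE at the moved centre (3 of 10 at the centre). LINC01714 spanned chr1:8200740-8204087, with its centre in an lncRNA exon, 1 bp from a TSS of the gene and 116 kb from that of SLC45A1. Its summit heights were 732, 2574 and 1273 in KIN, 1134, 2730.4 and 765 in HIF-2α and 992, 2328 and 909 in HIF-2α/1α. They were 401, 1225 and 567 in HIF-1α and 960.5, 2072 and 1051 in HIF-1α/2α. Replicate 2 was the highest of its line at this region throughout, and no WT library called it. ENSG00000289123 (chr9:91192385-91195091, 26.9 kb from AUH, which encodes an RNA-binding enoyl-CoA hydratase) ranked next, with heights of 458 to 2343 in the tagged libraries.

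LINC03057 (chr17:48636444-48639647) lies 4.58 kb from HOXB7, a homeobox gene of the HOXB cluster, and was highest in the KIN line. Its heights were 1049.6, 3573 and 1538 in KIN, 495, 1401 and 434 in HIF-2α and 247, 804 and 398 in HIF-1α, so that each KIN library was above the library of the same replicate number in every exogenous line. ENSG00000287560 (chr10:3045058-3049323) lies 19.0 kb from PFKP, a phosphofructokinase of glycolysis, and ENSG00000288929 (chr17:7833871-7837596) in an intron of KDM6B, a histone H3K27 demethylase, 1.57 kb from its TSS. Their heights were 203 to 1332 and 170 to 1082. The other regions of the 10 were LINC02985, ENSG00000234292, GASAL1 region 1, ENSG00000286505 and ENSG00000289609, of which all but LINC02985 were called in 1 or 2 WT libraries.

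Compared with protein-coding promoter regions, lncRNA promoter regions were called about as often on average, but the gap between the classes changed sign with the line. lncRNA promoter regions were called 4.09 ± 1.46 percentage points more often in KIN and 3.02 ± 0.913 more often in HIF-2α (SD, n = 3, above 0 in 3 of 3 libraries each). In HIF-2α/1α the gap was −4.25 ± 2.11 points and in HIF-1α −5.32 ± 2.64, below 0 in 3 of 3 libraries each, and −1.06 ± 2.09 in HIF-1α/2α, where 1 of 3 was above 0. In the ranks of called peaks the sign of the gap was the same in all libraries of an IDR. The median rank percentile of called lncRNA promoter regions exceeded that of called protein-coding promoter regions by 4.41 ± 2.63 in libraries with the HIF-2α IDR (1.20 to 7.50, above 0 in 6 of 6) and by 4.57 ± 1.58 in KIN (3 of 3), and was below it by a gap of −2.92 ± 1.68 with the HIF-1α IDR (−6.23 to −1.46, below 0 in 6 of 6). The difference of 7.33 between the IDRs was 4.12 with gene-level start sites and 2.75 with each list cut to its strongest 3984 peaks, and no test was made on it. Against regions far from both kinds of start site, lncRNA promoter regions were called more often in 15 of 15 tagged libraries, by 4.34 ± 1.75 points.

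**Figure D3:**
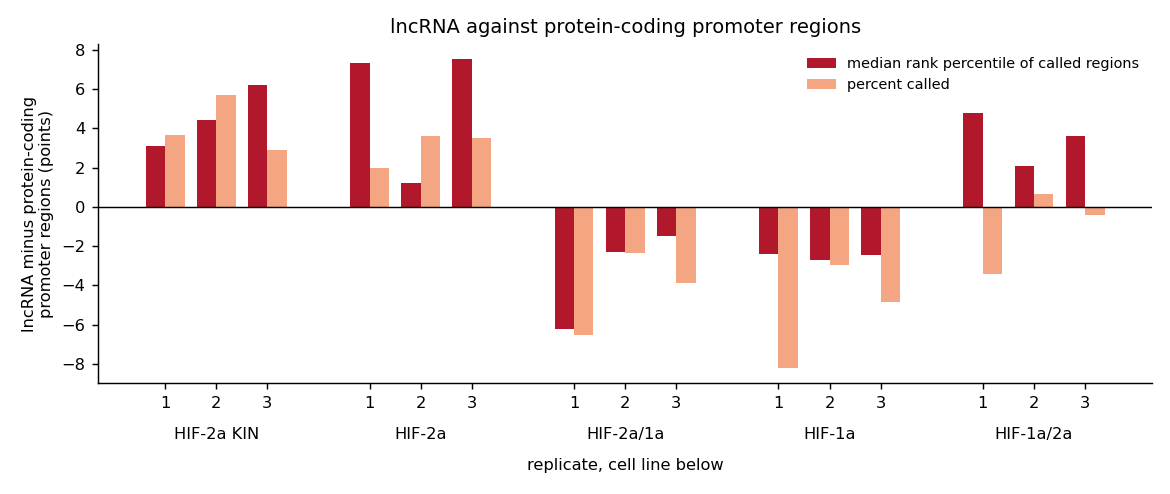
lncRNA promoter regions minus protein-coding promoter regions in each tagged library, for the median rank percentile of called regions (dark bars) and the percent called (light bars), in points. The rank gap is above 0 in the 9 libraries of KIN, HIF-2α and HIF-1α/2α and below 0 in the 6 libraries of HIF-2α/1α and HIF-1α.

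Taking lncRNA promoter regions alone, the 6 libraries of the HIF-2α IDR called 43.3 ± 18.0% (SD) and those of the HIF-1α IDR 59.5 ± 10.6% (SD, n = 6). The difference of −16.2 points was −22.3, −8.19 and −17.9 within replicates 1, 2 and 3, and was −16.2 over all regions as well. It turned to 2.13 when each list was cut to its strongest 3984 peaks. By DBD the difference was −5.79 points, and its sign changed between replicates (−8.01, 7.16 and −16.5).

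At single regions, calls were compared between 6 libraries with each IDR by a two-sided Fisher's exact test. 16 of 1068 lncRNA promoter regions (1.50%) had an unadjusted p under 0.05, against 1.42% of all regions, and no adjusted p was under 1. The smallest p that this design can give is 0.00216. 15 of the 16 were called more often with the HIF-1α IDR (background 1.32%). ENSG00000258092, which lies in an exon of FKBP4, a co-chaperone gene, on the opposite strand, was called in 6 of 6 libraries with the HIF-1α IDR and in 0 of 6 with the HIF-2α IDR (exact p = 0.00216), at heights of 31.8 to 59.0. The remaining 1, LINC00971 (chr3:84880840-84881834), went the other way, with 6 of 6 against 1 of 6 (exact p = 0.0152, background 0.0947%). Its heights were 64.2, 177 and 82.9 in HIF-2α and 51.2, 159 and 92.5 in HIF-1α/2α, and the 1 call with the HIF-1α IDR, in HIF-2α/1α replicate 2, had a height of 19.2. No KIN or WT library called LINC00971. Without HIF-2α replicate 2, the library with the most calls of its line, the count of 16 became 40 (3.75%, against 3.40% of all regions), and without any other single library it was 17 to 30 (1.59% to 2.81%, against 1.66% to 2.83% of all regions), so the count moved with that of all regions.

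By DBD, 4 lncRNA promoter regions had an unadjusted p under 0.05 in the same exact test (0.375%, background 0.564%), all called more often with the HIF-1α DBD (background 0.489%, and 0.075% the other way). ENSG00000241490 was called in 5 of 6 libraries carrying the HIF-1α DBD and 0 of 6 carrying the other DBD (exact p = 0.0152), and ENSG00000245748, in an intron of TADA2B, in 6 of 6 and 1 of 6 (exact p = 0.0152). The calls at ENSG00000241490 had heights of 46.5 to 155. Without any 1 of the 12 libraries the count of 4 became 6 to 13 (0.562% to 1.22%, against 0.706% to 1.24% of all regions).

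Signal strength was compared in the 136 lncRNA promoter regions called in all 12 exogenous libraries, by limma on the log2 deposited fold over 2720 such regions, each library centred on its median. By IDR, 4 of 136 had an adjusted p under 0.05 and all 4 were higher with the HIF-2α IDR, against 2.28% of all regions called (1.73% higher, 0.551% lower). They were LINC00702, LINC02188, ENSG00000253796 region 1 and LINC02777 region 2. The nearest protein-coding TSS was 137 kb or more from each. LINC00702, LINC02188 and LINC02777 region 2 held an HRE at the moved centre, as did 63.2% of lncRNA promoter regions called in all 15 tagged libraries. Without centring the libraries 1 of the 4, LINC00702, was called, and none of the calls by DBD below.

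LINC00702 (chr10:4240767-4244208) had its centre in an lncRNA exon, 457 kb from KLF6. Its deposited folds were 31.5, 61.6 and 26.1 in HIF-2α and 33.3, 37.9 and 32.4 in HIF-1α/2α. They were 17.8, 17.9 and 6.77 in HIF-2α/1α and 6.22, 5.38 and 13.2 in HIF-1α. The 6 libraries with the HIF-2α IDR did not overlap the 6 with the HIF-1α IDR in fold. The difference was 2.14 on the log2 scale (SE 0.34, limma adjusted p = 6.85e-06). In summit height it was smaller, at 1.20 (SE 0.15, limma adjusted p = 1.01e-05).

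LINC02188 (chr16:86734212-86736410, in an lncRNA intron, 157 kb from FOXL1) held both an HRE and an AP-1 motif. Its summit heights were 177, 507 and 174 in HIF-2α and 548, 1649 and 667 in HIF-1α/2α, against 74.4, 154 and 78.6 in HIF-2α/1α, and against 85.7, 228 and 182 in HIF-1α. HIF-1α/2α was thus the highest line and HIF-2α/1α the lowest within each replicate number. The IDR difference was 1.88 in log2 fold (SE 0.35, limma adjusted p = 0.000219) and 2.17 in log2 height (SE 0.14, limma adjusted p = 3.84e-09), and the DBD difference in log2 height was −1.23 (SE 0.14, limma adjusted p = 3.34e-06).

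ENSG00000253796 region 1 (chromosome 8, 137 kb from TRHR) was called in no KIN library. Its heights ran from 97.8 to 846 with the HIF-2α IDR and from 36.7 to 145 with the HIF-1α IDR, and its IDR difference was 1.83 in log2 fold (SE 0.35, limma adjusted p = 0.000294). LINC02777 region 2 (chr1:58929158-58930642), 146 kb from JUN, had an IDR difference of 1.42 in log2 fold (SE 0.34, limma adjusted p = 0.00953). Its heights were 189 to 548 with the HIF-2α IDR and 78.3 to 362 with the HIF-1α IDR, and these ranges overlap. Within each replicate number both HIF-2α IDR lines were above both HIF-1α IDR lines, though the labels do not say that a number marks paired libraries.

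**Figure D4:**
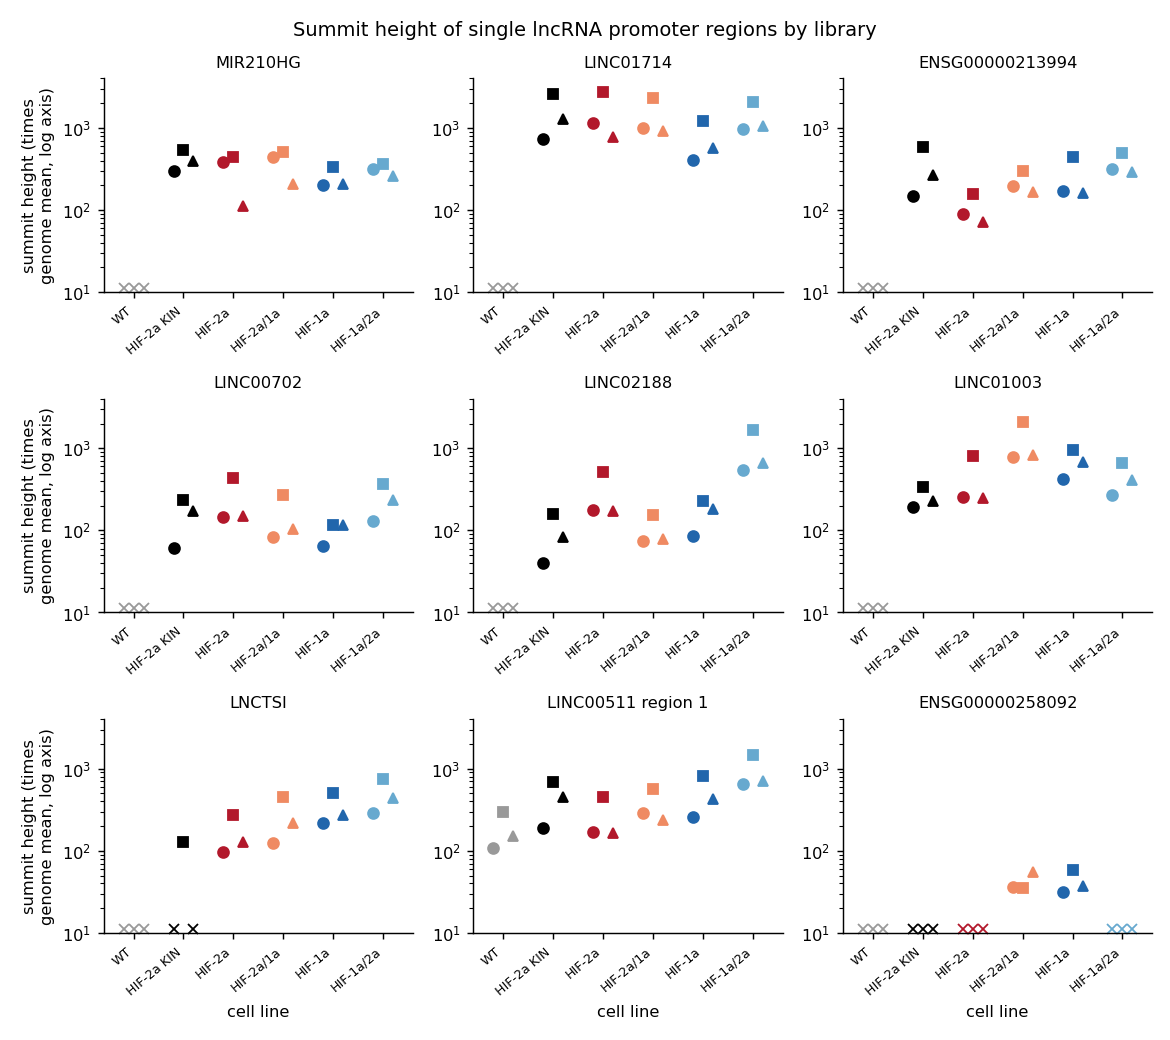
Summit height (fragments at the summit over the genome-wide mean, log axis) of 9 lncRNA promoter regions in the 18 anti-V5 libraries, by line. Circles, squares and triangles are replicates 1, 2 and 3, and a cross on the axis marks a library without a call. LINC00702 and LINC02188 are higher with the HIF-2α IDR, and LINC00511 region 1 has a call in all 3 WT libraries.

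By DBD, 2 of 136 lncRNA promoter regions passed (background 3.12%, 2.13% lower), both lower with the HIF-2α DBD. LNCTSI (chr21:36428818-36431177), an lncRNA named for an interaction with TGF-β and SMAD3 signalling, had heights of 97.8, 272 and 126 in HIF-2α and 124, 455 and 219 in HIF-2α/1α. They were 215, 504 and 277 in HIF-1α and 293, 740.0 and 436 in HIF-1α/2α, above the HIF-2α DBD lines within each replicate number. Its DBD difference was −1.27 in log2 fold (SE 0.34, limma adjusted p = 0.0182) and −1.04 in log2 height (SE 0.14, limma adjusted p = 1.92e-05). LINC00887 region 1 (chr3:194312483-194313703) had −1.13 in log2 fold (SE 0.34, limma adjusted p = 0.0462) and −0.68 in log2 height (SE 0.14, limma adjusted p = 0.00123). The fold call of LNCTSI was lost without HIF-1α replicate 1 or HIF-1α/2α replicate 3 and that of LINC00887 region 1 in 8 of 12 such repeats, and the count of 2 became 0 without HIF-1α/2α replicate 3, 1 in 6 of the other repeats and 3 without replicate 3 of HIF-2α or of HIF-1α.

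The largest differences in the opposite directions did not pass in fold without the replicate number as a block. By IDR the lowest were −1.09 at ENSG00000254028 (limma adjusted p = 0.0611), −0.97 at GNA15-DT (limma adjusted p = 0.109), the divergent transcript of a G protein subunit gene, and −0.88 at ENSG00000235410 (limma adjusted p = 0.164). By DBD the highest were 1.11 at LINC03057 (limma adjusted p = 0.0523) and 1.04 at ENSG00000267764 (limma adjusted p = 0.074). With the replicate number as a block, ENSG00000254028 passed by IDR (limma adjusted p = 0.039) and LINC03057 and ENSG00000267764 by DBD (limma adjusted p = 0.0394 and 0.0466), while the 6 calls above remained. All regions called rose to 3.79% by IDR and 4.82% by DBD. Without single libraries, GNA15-DT (HIF-2α replicate 3) or ENSG00000254028 (HIF-1α replicate 2) also passed by IDR, and LINC03057 (replicate 3 of HIF-2α or of HIF-1α) or ENSG00000267764 (HIF-2α/1α replicate 1 or HIF-1α replicate 2) by DBD.

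No lncRNA promoter region passed for the interaction, in which the IDR difference depends on the DBD (limma adjusted p, background 0%, with 8 regions at an unadjusted p under 0.05 against 5.15% of all regions). In summit height 0 passed as well (limma, background 0.11%, with 0.0735% higher and 0.0368% lower), and 10 had an unadjusted p under 0.05 against 8.97% of all regions. The deposited fold has a median residual SD of 0.579 in log2, against 0.259 for the summit height.

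In summit height more regions were called. By IDR, 39 of the 136 lncRNA promoter regions were higher with the HIF-2α IDR and 20 higher with the HIF-1α IDR, against 42.7% of all 2720 regions called (24.3% and 18.4%). The DBD comparison called 36, of which 21 favoured HIF-2α and 15 HIF-1α, with 30.1% of all regions called (16.5% and 13.6%). 18 regions (13.2%) were called for both, 41 (30.1%) for the IDR alone, 18 (13.2%) for the DBD alone and 59 (43.4%) for neither, against 13.5%, 29.2%, 16.7% and 40.6% of all 2720 regions. The 6 fold calls were also called in height, with the same sign. Without centring the libraries, 2 regions by IDR and 0 by DBD were called (0.257% and 0.368% of all regions), so these counts describe changes relative to the median region of each library. The uncentred median IDR difference of all regions was −0.22 in log2 height and −0.24 in log2 fold.

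The regions higher with each IDR differed in composition. The 39 higher with the HIF-2α IDR had a median GC content of 54.7%, a CpG ratio of 0.408 and a median distance to a protein-coding TSS of 39.5 kb, and the 20 higher with the HIF-1α IDR had 65.9%, 0.826 and 14.5 kb. The same medians over all regions called in each direction were 48.8%, 0.283 and 23.7 kb against 62.7%, 0.663 and 0.395 kb. The 77 lncRNA promoter regions called in neither direction had 55.7%, 0.473 and 30.9 kb, nearer to the 39 than to the 20. An HRE at the moved centre was found in 26 of the 39, 12 of the 20 and 44 of the 77. Over all regions the shares were 68.4%, 66.1% and 58.2% in the same order. A WT library called 11 of the 39, 5 of the 20 and 28 of the 77, against 168 of 661, 111 of 501 and 433 of 1558 of all regions.

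**Figure D5:**
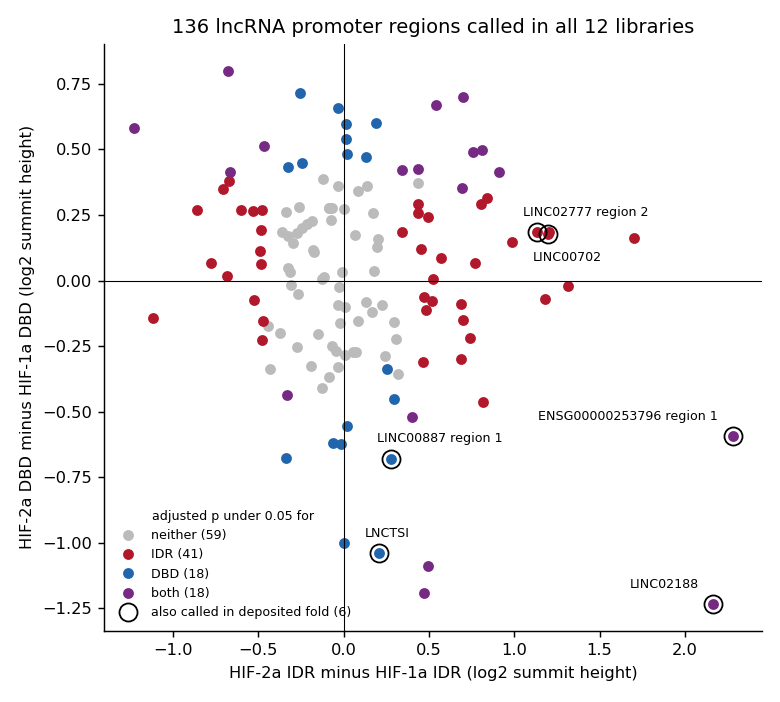
Difference in log2 summit height between the IDRs (horizontal) and between the DBDs (vertical) for the 136 lncRNA promoter regions called in all 12 exogenous libraries, coloured by which difference has a limma adjusted p under 0.05. Circled are the 6 regions also called in the deposited fold, with LINC02188 at 2.17 and −1.23.

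Chosen after their values were seen, the regions at the ends of these scales were as follows. GDNF-AS1, antisense to the gene of a neurotrophic factor that acts through RET, was higher with the HIF-2α IDR by 1.70 in log2 height (SE 0.15, limma adjusted p = 2.24e-07), with heights of 196, 529.7 and 233 in HIF-2α and 51.4, 147 and 105 in HIF-1α. LINC01003, 27.4 kb from the histone methyltransferase gene KMT2C, had a difference of −0.86 (SE 0.13, limma adjusted p = 5.42e-05) and no HRE at either centre. Its heights were 787, 2065 and 827 in HIF-2α/1α, against 268, 666 and 413 in HIF-1α/2α, with HIF-2α/1α the highest line within each replicate number. SCUBE1-AS1 in an intron of SCUBE1 (−1.12) and ENSG00000230699 (−1.23) had the largest differences in that direction. LINC00511 region 1, called in WT, had the largest DBD difference after LINC02188, −1.19 in log2 height (SE 0.13, limma adjusted p = 3.67e-06), with heights up to 1469 in HIF-1α/2α. PSD2-AS1 had the largest in the other direction, 0.80. ENSG00000289267, 1.19 kb from the immediate early gene EGR1, had a DBD difference of 0.99 in log2 fold (limma adjusted p = 0.0822), but −0.075 in log2 height.

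Exogenous HIF-2α was set against endogenous HIF-2α in the 98 lncRNA promoter regions called in all 6 libraries of both lines. In deposited fold 1 of 98 passed (limma, background 0.551%, with 0.22% higher and 0.331% lower). This was ENSG00000213994 (chr10:6200126-6205986), which lies in an intron of PFKFB3, the glycolytic regulator that makes fructose 2,6-bisphosphate, on the opposite strand and 1.07 kb from its TSS. Its heights were 148, 577 and 266 in KIN and 88.6, 155 and 71.0 in exogenous HIF-2α. Exogenous HIF-2α was lower in each replicate number, with a difference of −1.93 in log2 fold (SE 0.46, limma adjusted p = 0.0192) and −1.78 in log2 height (SE 0.23, limma adjusted p = 0.000124). The fold call of ENSG00000213994 was lost when any 1 of the 6 libraries was left out (limma adjusted p 0.0567 to 0.125), and the height call was not. Another region passed in fold in its place, also lower with the exogenous protein, in 2 of these repeats, MIR210HG without HIF-2α replicate 1 (−2.15, limma adjusted p = 0.0372) and LINC02086 without HIF-2α replicate 3 (−2.09, limma adjusted p = 0.0466).

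In summit height 26 of the 98 passed, 6 higher and 20 lower with the exogenous protein, against 25.4% of all regions (11.4% higher, 14% lower). LINC03057 differed by −1.69 (SE 0.23, limma adjusted p = 0.000141) and LINC02086, 13.3 kb from HOXB7, by −1.45 (SE 0.27, limma adjusted p = 0.0016). LINC02188 (1.37), FGGY-DT region 1 (1.15) and LUNAR1 (1.00) were higher. The same 3 HIF-2α libraries enter this comparison and those by IDR and DBD. KIN is 1 clone, so the clone and the source of the protein cannot be told apart, and neither measure called any of these regions without centring.

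Among 32 lncRNAs listed for a reported link to hypoxia or HIF, of which 29 are in the annotation, 12 had an lncRNA promoter region (33 regions), 6 had a region only within 1 kb of a protein-coding TSS and 11 had none. The 33 regions were called in a median of 8 tagged libraries, 13 of them in at least 12 and 5 in all 15, and 13 in 5 or fewer. Over all 1068 lncRNA promoter regions the median was 6, with 226 in at least 12, 95 in all 15 and 505 in 5 or fewer. An HRE was found in 4 of the 33 (12.1%) at the moved centre and in 6 (18.2%) at the centre, against 36.9% and 30.5% of all lncRNA promoter regions. The 33 are not separate loci, since 12 were nearest to LINC00511 and 6 to PVT1. Each of these genes had 1 region with an HRE at the centre. CYTOR, H19, HOTAIR, MEG3 and NORAD were among the genes without a region. Of the 6 regions in the fit, 0 passed by IDR and 1 by DBD, LINC00887 region 1, in deposited fold (limma). In log2 height, LINC00511 region 1 was higher (0.47, limma adjusted p = 0.00903) and PVT1 region 1 lower (−0.49, limma adjusted p = 0.00866) with the HIF-2α IDR, and LINC00511 region 1 and LINC00887 region 1 were lower with the HIF-2α DBD, by the values above. Of the 5 regions fitted against endogenous HIF-2α, 0 passed in fold and LINC00511 region 1 was lower with the exogenous protein in height, with a difference of −1.003 (SE 0.21, limma adjusted p = 0.00294).

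MIR210HG (chr11:567686-570148), the host of the hypoxia-induced microRNA miR-210, was called in all 15 tagged libraries and in no WT library, with its centre 201 bp upstream of the TSS. Its heights were 301, 530.1 and 390.5 in KIN, 382, 444 and 110.5 in HIF-2α and 444, 512 and 208 in HIF-2α/1α. They were 203, 335 and 206 in HIF-1α and 312, 366 and 261 in HIF-1α/2α, and the ranges of all tagged lines overlap. Its IDR difference was 0.03 in log2 fold (95% confidence interval −0.67 to 0.74) and 0.20 in log2 height (−0.37 to 0.78), which does not show that the proteins act alike here.

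NEAT1, the scaffold of paraspeckles, was called in all 15 tagged libraries and in no WT library, with heights of 50.2 to 293, although neither the centre nor the moved centre of its 9665 bp region held an HRE within 50 bp. MALAT1, a nuclear speckle RNA beside it, had region 1 in 8 libraries and region 2 in 5, and where it was called region 2 had a median rank percentile of 99.99. LINC00511, a gene with many start sites beyond SOX9, had 12 regions by nearest start site, called in 2 to 15 libraries. PVT1, the neighbour of MYC, had 6 regions, of which 2 were called in all 15 and 4 in a WT library. LINC00887 region 2 and EGOT, which starts in an intron of ITPR1 on the opposite strand, were called in 12 each. Both LUCAT1 regions were called in 12 tagged libraries and 1 WT library.

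Of 117 host genes of microRNAs and small nucleolar RNAs, 34 had an lncRNA promoter region (37 regions), 17 had a region only near a protein-coding TSS and 66 had none. The regions were called in a median of 5 tagged libraries, 7 of them in at least 12, 5 in all 15 and 21 in 5 or fewer, and 16 (43.2%) held an HRE at the moved centre. Over all 1068 lncRNA promoter regions the median was 6, with 226 in at least 12, 95 in all 15 and 505 in 5 or fewer, and 36.9% held an HRE there. The 5 host regions called in all 15 were MIR210HG, MIR29B2CHG, MIRLET7A1HG, MIRLET7BHG region 1 and MIR181A2HG, and no WT library called any of them. MIR29B2CHG, the host of miR-29b-2 and miR-29c, had heights of 84.6, 272 and 281 in KIN, 174, 354 and 182 in HIF-2α and 255, 504 and 263 in HIF-1α. MIR181A2HG and the hosts of the let-7 microRNAs reached 805, 845 and 148. MIR155HG was called in 13 and MIR99AHG in 12 tagged libraries. The 10 snoRNA hosts named SNHG were called in 2 to 9. Of the 5 host regions in the fit, 0 passed by IDR, DBD or source of HIF-2α in deposited fold (limma), and 1, MIRLET7A1HG, was higher with the HIF-2α DBD in log2 height, by 0.43 (SE 0.14, limma adjusted p = 0.0249).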

How the data were processed

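Cut&Run libraries made with anti-V5 or control IgG from 6 lines of 786-O cells were sequenced as paired ends. The authors aligned reads to hg38 with Bowtie2 2.3.4.1 and SAMtools 1.8, called peaks per anti-V5 library against its IgG library with MACS2 (version not given in the sources used here), and removed blacklisted regions with bedtools 2.28.0. The deposited peak lists give a fold (a ratio of pileup to local background), a −log10 p-value and a −log10 q-value per peak. IgG libraries enter only through these lists. No column of samples of another series was present.

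Summit fragments were recovered from the deposited fold and −log10 p-value, and divided by the mean coverage (summit height). HIF-2α/1α replicate 2, the deepest library, needed a scale of 0.949 on the fragments, with 94.5% of its peaks within 0.001 of the p-value column and 99.99% within 0.01, and in every other library all peaks were within 0.001. Because a taller peak can be set against a higher local background, both scales are given. Peaks were merged and placed against GENCODE release 44 with Python 3.11.15, NumPy 2.4.6, pandas 2.3.3 and pysam 0.24.0. Calls were compared by two-sided Fisher's exact tests (SciPy 1.17.1), and log2 fold or height, each library centred on its median, by limma 3.58.1 in R 4.3.3 with Benjamini-Hochberg adjustment over all regions called in every library compared. Figures were drawn with matplotlib 3.10.9. On simulated data for the IDR comparison, with 200 of 2720 regions changed, the fold recovered 13.5% and the height 95.5% of regions changed by a log2 difference of 1, with 1 and 4 false calls, and 0% and 36.5% of those changed by 0.5, with 0 and 1. The simulated noise was independent between regions and libraries, with no shift shared within a library or replicate number. In the data 42.7% of regions were called in height, so the simulated rates, false calls included, need not hold there.

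Regions were named by fixed rules: the 10 with the highest median rank among those called in all 15 tagged libraries, the largest differences in each comparison, list members called in at least 12 of 15, and regions next to the 1 kb limit. Others are said to be chosen after their values were seen. The regions and gene lists were chosen with earlier results of these data known. Alternatives covered centring, the measure, the TSS window, the calling threshold, list length, each library left out and the replicate number as a block. Depth is known only through the recovered coverage, and counting error alone limits a summit of few fragments.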

Additional observations from a re-analysis of the deposited data

How the results depend on the processing

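Peak lists record called peaks alone, so at low depth a region without a call is not shown to be unbound, and fits cover the regions called in every library. Summit height was chosen as a second measure after seeing the data, as was the moved centre.

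Of 4 regions called by IDR in fold, 1 was called without centring. In height 59 were called (2 without centring, 73 with the replicate block), while the share of all regions went from 42.7% to 0.257% and 49.7%. By DBD, 2 became 0 without centring, 1 with regions called in at least 2 of 3 libraries of every line and 4 with the replicate block (2 of them higher), and in height 36 (0 without centring, 46 with the block; all regions 30.1%, 0.368% and 38.4%). The interaction gave 1 in height with the block. The endogenous comparison gave 0 without centring and 0 with at least 2 of 3 libraries, and in height 26 (0 without centring, 30 with the block; all regions 25.4%, 0.386% and 31.5%). With each library left out in turn, these counts ran from 4 to 5, 0 to 3 and 0 to 1 in fold, and from 52 to 61, 23 to 35 and 18 to 26 in height.

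With lists cut to the strongest 3984 peaks, 336 regions remained lncRNA promoter regions, the IDR difference in percent called was 2.13, 6 regions were sorted by IDR calls, and the gaps to protein-coding regions were −10.8 points for the HRE, 14.9 for the difference between IDRs in percent called and 2.75 in rank. The rank difference was 4.12 with gene-level start sites. The HRE gap was −8.24 with a 2 kb window, −9.28 at moved centres and −0.829 for TACGTG. Peaks with −log10 q of at least 5 left 1 region sorted by DBD calls. The cause of these changes was not tested. Leaving out libraries gave 17 to 40 regions sorted by IDR calls and 6 to 13 by DBD, percent differences of −21.1 to −12.1 and −10.8 to −0.718, gaps of −1.16 to −0.171 in calls, −6.25 to −5.61 in HRE and 1.08 to 2.07 in rank, and differences between IDRs of 5.08 to 6.64 and 6.67 to 7.98. The DBD difference of ENSG00000289267 in height was −0.075, −0.051 without centring, −0.075 with the block and −0.18 to 0.0023 with libraries left out, against 0.87 to 1.10 in fold with libraries left out.

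Replicate numbers were not taken as pairs in the main fits, and the labels do not say whether a number marks a shared day or culture. Orders of lines within a replicate number, given above for single regions, are description and not a paired test. Same-numbered libraries had correlations of −0.021 to 0.177 in 30 pairs, 9 of them over 0.1, and 14 of 15 libraries correlated best with their own number. With the replicate block the fold counts were 5 by IDR (1 of them lower), 0 for the interaction and 1 for the endogenous comparison.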

Other observations

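Several lncRNA genes had more than 1 promoter region. LINC00963 had 5, called in 2 to 15 tagged libraries and 2 of them in all 15, and DRAIC, LASTR and LINC02532 had 4 each. LASTR regions were called in 5 to 14 tagged libraries and no WT library, and DRAIC regions in 3 to 6.

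Among lncRNA promoter regions with an HRE within 50 bp of the centre, grouped by the base before the core of the nearest copy, GGCGTG was the most frequent hexamer (61 regions, a median of 7 tagged libraries) and TACGTG the least frequent (24 regions, a median of 6.5). The 46 regions with GACGTG were called in a median of 9 tagged libraries and 8 of them in all 15. These values are given with no test, for the unmoved centre alone and without a background frequency of the hexamers. The HRE was densest 80 bp from that centre, so the order of the hexamers may differ there.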
